A study of Salmo salar with 37 samples.

Results

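Doublesex- and mab-3-related transcription factor A1 (Dmrta1), Homeobox protein Hox-A2a and the zinc finger protein znf703 were followed in the testis of Atlantic salmon (Salmo salar) by 3 probes of the 43689 on the array. They were picked by name from the study's lists of genes that differed between feed rations. The Dmrta1 probe (CUST_33922_PI417904088) stands in the lists for immature and for all males, the Hox-A2a probe (CUST_38816_PI417904088) in that for immature males and the znf703 probe (CUST_18462_PI417904088) in that for maturing males, each as higher under restriction. The difference between rations therefore chose these genes and is given for them as a description, without a test. The descriptions of the study's lists are the only names the probes have here. As the salmon genome is duplicated, a probe may also bind the transcript of a paralog.

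The study asked how energy status modulates testicular gene expression at the start of puberty. Males were 21 months old when feeding began and were kept in 2 sea cages. The normal ration (NR, 16 males) was given every day without limit, and the restricted ration (RR, 21 males) consisted of the same meals on Mondays, Wednesdays and Fridays only. Each cage received 1 ration, so that a difference between cages and an effect of the ration cannot be told apart. Fish of both rations were tagged and were anesthetized with metomidate at transfer to the cages and at sampling. The study selected males whose most advanced germ cells were type A spermatogonia, some immature and some maturing. The labels used here give neither status nor sampling date per male. These were not taken from any other source, and all RR males were compared with all NR males. The comparison thus mixes immature and maturing males, unlike the contrasts that listed Hox-A2a and znf703. The rations were read from the sample titles, since another label calls every ration normal.

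Dmrta1 belongs to the DM domain family of DNA-binding proteins, which share the zinc-finger-like fold first described in Drosophila doublesex and nematode mab-3. The best known vertebrate relative, Dmrt1, acts in testis differentiation and maintenance. Hox-A2a is a homeobox protein of the Hox clusters, which pattern the body axis. Hoxa2 sets the identity of hindbrain segments and of the branchial arches in the mouse. Znf703 belongs to the NET family of zinc finger proteins, which act as transcriptional repressors, and its zebrafish relatives are known from hindbrain development. In human breast tissue, ZNF703 is known as an oncogene of the luminal subtype.

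Each testis was hybridized to 1 one-color oligonucleotide array, on which the Cy3 brightness of a spot measures the transcript that its probe targets. Values are log2 intensities after quantile normalization between arrays, unless another scale is named. The number of arrays limits the precision. Between 34857 and 41394 probes per NR male and between 34084 and 43287 per RR male were well above background. The arrays lay on 11 slides scanned on 2 days, with 11 NR and 6 RR males on day 1 and 5 NR and 15 RR males on day 2. Levels are compared between males only and never between probes, because probes differ in how brightly they bind. The RNA came from whole tissue, so that fewer cells of a type and less RNA per cell cannot be told apart.

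Arrays of 2 males lay at the upper end, that of RR male 16 clearly and that of RR male 20 by a small margin. RR males 16 and 20 had the most probes well above background (43287 and 43121), followed by RR male 14 (42831). The 10th percentile of processed intensity was 218 in RR male 16 and 66.6 in RR male 20, against 7.79 to 62.8 on the other 35 arrays. Leaving both out gave differences between rations of 0.62 for Dmrta1 and 0.67 for znf703, against 0.60 and 0.67 with all males, whereas the Hox-A2a values given below rest on them.

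Dmrta1 signal was higher in RR than in NR testes. The normalized log2 intensity ranged from 6.98 to 8.54 in NR males (median 7.89) and from 7.99 to 9.04 in RR males (median 8.45). All 21 RR males lay above the NR median and 6 lay above every NR male, while 9 of the 16 NR males were below the lowest RR male. The groups thus overlapped in their middle range. Means were 7.84 ± 0.425 (SD, n = 16) in NR and 8.44 ± 0.291 (SD, n = 21) in RR males, a difference of 0.60 on the log2 scale (standard error 0.12) or 1.51-fold. The probe was well above background on all arrays. Before normalization its processed intensity was between 115 and 430 in NR males and between 208 and 839 in RR males.

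The same order was found within each scan day. On day 1 the mean log2 intensity of Dmrta1 was 7.89 in NR and 8.49 in RR males, and all 6 RR males lay above the NR median of that day. On day 2 it was 7.72 in NR and 8.42 in RR males, and each of the 15 RR males exceeded the NR median of their day. The differences were 0.60 (standard error 0.16) and 0.70 (standard error 0.20). The 6 RR males of day 1 were close together, between 8.35 and 8.62, whereas the 15 of day 2 ranged from 7.99 to 9.04.

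The znf703 probe also gave a higher signal under restriction. Its normalized log2 intensity ranged from 10.60 to 11.70 in NR males (median 10.83) and from 10.85 to 12.34 in RR males (median 11.71). All 21 RR males lay above the NR median, 11 of them above every NR male, and 9 NR males were below the lowest RR male. The highest NR males were 4 and 5, at 11.70 and 11.56, and the lowest RR males were 6, 3 and 2, at 10.85, 10.99 and 11.02. Means were 10.95 ± 0.346 (SD, n = 16) in NR and 11.62 ± 0.413 (SD, n = 21) in RR males. The difference was 0.67 on the log2 scale (standard error 0.13), or 1.59-fold.

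The distance between the rations for znf703 was 0.72 (standard error 0.17) on scan day 1 and 0.43 (standard error 0.20) on day 2. The mean of NR males was 10.83 on day 1 and 11.21 on day 2, and that of RR males 11.54 and 11.65. All 6 RR males of day 1 and 13 of the 15 of day 2 lay above the NR median of their day. Only 5 NR males were scanned on day 2, among them the highest 2.

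Hox-A2a gave a dim signal, with a processed intensity of 22.1 to 70.2 in NR males and 32.6 to 229 in RR males. It was well above background on all RR arrays and on 15 of 16 NR arrays, the exception being NR male 10. After quantile normalization the log2 intensity ranged from 4.92 to 5.96 in NR males (median 5.43) and from 3.52 to 6.20 in RR males (median 5.91). In RR testes 18 of 21 males lay above the NR median and 6 above every NR male, but RR males 20 and 16 were the lowest of all, at 3.52 and 4.35. Means were 5.40 ± 0.329 (SD, n = 16) and 5.65 ± 0.645 (SD, n = 21), a difference of 0.26 (standard error 0.17) or 1.19-fold.

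The values of these RR males depended on the scaling. RR male 16 had the brightest Hox-A2a spot of all arrays before normalization (229), and RR male 11 a bright one (86.5). Within its own array the spot of RR male 16 was nevertheless brighter than only 10.9% of the probes, and that of RR male 20 than only 6.60%. On the other 35 arrays this share was between 14.5% and 26.1%. Quantile normalization keeps the rank within an array, and so placed both males at the bottom. When each array was instead scaled by its 75th percentile, the log2 value of RR male 16 was -3.38, the highest of all males, and that of RR male 20 was -4.98, close to the RR median of -4.95. The difference between rations was then 0.59 (standard error 0.14), with 19 of 21 RR males above the NR median and 8 above every NR male.

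Without RR males 16 and 20, a choice made after the values had been seen, the quantile normalized difference of Hox-A2a was 0.44 (standard error 0.10, 16 NR and 19 RR males), and 18 of the 19 RR males lay above the NR median. The smallest value, 0.08 (standard error 0.067), came from the normexp background correction, run with an added offset of 50. The median processed intensity of the probe was 33.8 in NR and 53.5 in RR males. An added constant shrinks the log2 differences of a dim probe. The normexp setting also started from the median spot signal rather than the processed intensity, and the part of the offset was not tested. The sign was the same in every setting run, whereas the size spanned 0.08 to 0.59. As the probe was chosen as higher under restriction on these males, nothing is read from the sign. For Dmrta1 the settings gave 0.44 to 0.70, and for znf703 0.43 to 0.72.

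**Figure D1:**
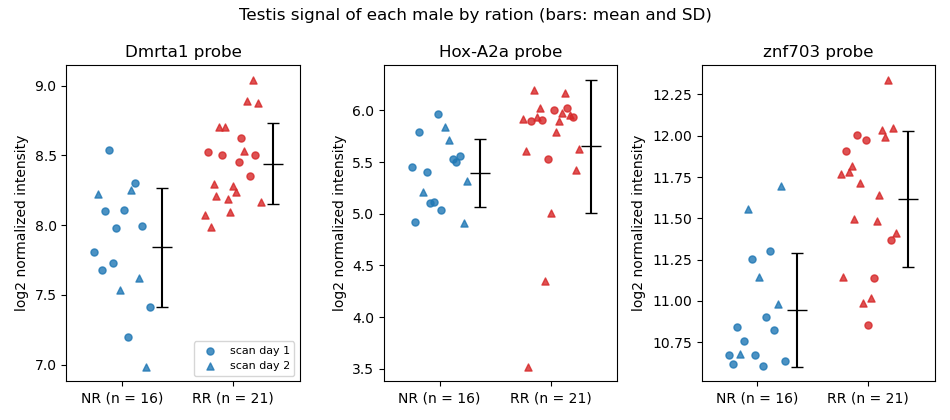
Normalized log2 intensity (y axes) of the Dmrta1, Hox-A2a and znf703 probes in each male by ration, with circles for scan day 1, triangles for scan day 2 and black bars for mean and SD. All 21 RR males lie above the NR median for Dmrta1 and znf703, while RR males 20 and 16 lie at 3.52 and 4.35 for Hox-A2a, below every NR male.

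**Figure D2:**
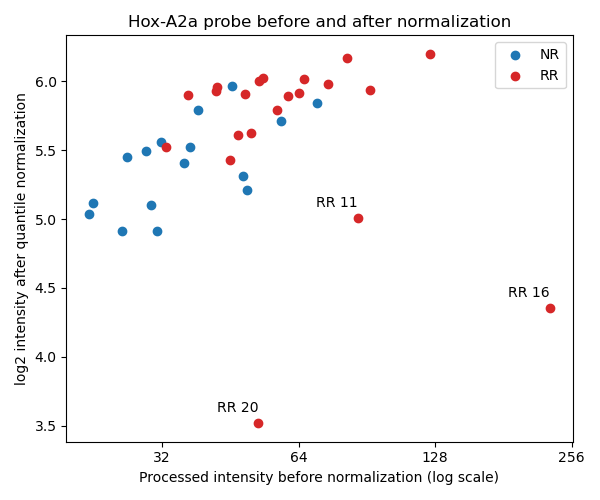
Hox-A2a log2 intensity after quantile normalization (y axis) against the processed intensity of the same spot before normalization (x axis, log scale), 1 point per male. RR male 16 has the brightest spot (229) and nevertheless the second lowest normalized value (4.35).

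**Figure D3:**
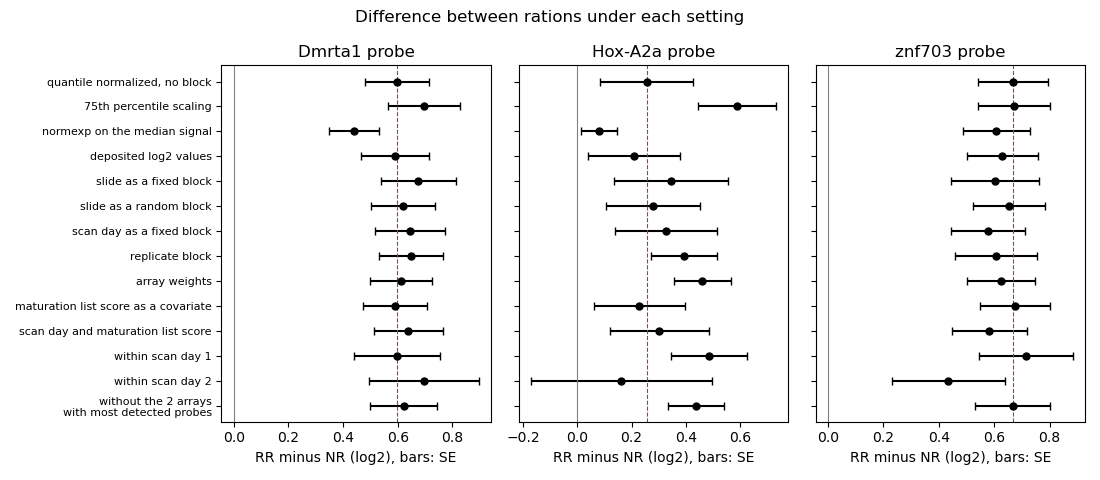
Difference between RR and NR males on the log2 scale (x axes, bars: standard error) for the 3 probes under each setting (rows), with the quantile normalized value as a dashed red line. All values are above 0, with a range of 0.44 to 0.70 for Dmrta1, 0.08 to 0.59 for Hox-A2a and 0.43 to 0.72 for znf703. The probes were chosen as higher under restriction on these males, so that nothing is read from the sign.

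By the thresholds of the study (adjusted p below 0.01 and fold change above 1.5, here from limma with Benjamini-Hochberg adjustment), the Dmrta1 and znf703 probes, 2 of the 3, were differentially expressed between all RR and all NR males. Among all 40684 probes tested the share was 0.256%, and 0.0885% for probes higher in RR males. Because the ration contrast chose the probes, nothing is read from this count. The adjusted p follows the study's methods, while its captions name a P and a separate false discovery rate. The study's own list for all RR against all NR males is shorter than the 104 probes called here. It holds the Dmrta1 probe but not the znf703 probe. With scan day or slide as a fixed block neither of the 2 met the thresholds, and only 9 of all probes did under each block. Dmrta1 also missed them with the normexp correction. With 1 male left out, Dmrta1 met them in 29 of 37 fits and znf703 in all 37. The log2 differences with the scan day block were 0.65 for Dmrta1, 0.33 for Hox-A2a and 0.58 for znf703.

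Apart from the ration, the 3 genes did not vary together in a way that held in both scalings. Each male's deviation from the mean of its ration was used, and 3 pairs were tested over 37 males. The deviations leave out the difference between all RR and all NR males. Any part of the listing contrasts particular to immature or to maturing males stays in. Dmrta1 and Hox-A2a were both listed as higher under restriction in immature males. That choice may itself favor a positive r between them, so that nothing is read from the p of this pair. Dmrta1 and Hox-A2a had a Pearson r of 0.23 (permutation p = 0.123, adjusted p = 0.369) and a Spearman rho of 0.30 (permutation p = 0.0733, adjusted p = 0.220). Without the 2 males farthest from the median of Dmrta1, r was 0.28. With 75th percentile scaling the same pair reached r = 0.58 (permutation p = 8.00e-05, adjusted p = 0.000240) and rho = 0.55, and r = 0.52 (permutation adjusted p = 0.00447) when RR males 16 and 20 were also left out. The pairs of Dmrta1 with znf703 (r = -0.07, rho = -0.10, permutation adjusted p = 0.682 and 0.594) and of Hox-A2a with znf703 (r = -0.10, rho = -0.09, with the same adjusted p) did not pass in either scaling. Without the 2 farthest males their r was -0.01 and -0.13. Within ration and scan day, r was 0.23 for Dmrta1 with Hox-A2a, -0.02 for Dmrta1 with znf703 and -0.09 for Hox-A2a with znf703.

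A difference in spread between rations was not established. The mean absolute deviation from the ration median was 0.346 in NR and 0.239 in RR males for Dmrta1 (permutation p = 0.107, adjusted p = 0.322), 0.270 and 0.356 for Hox-A2a (permutation adjusted p = 0.616), and 0.263 and 0.340 for znf703 (permutation adjusted p = 0.524). For Hox-A2a the order turned to 0.270 and 0.185 without RR males 16 and 20. Scan day was tested within ration in the same manner. Day 2 differed from day 1 by -0.12 for Dmrta1, -0.18 for Hox-A2a and 0.23 for znf703 on the log2 scale, with permutation adjusted p of 0.380, 0.380 and 0.291. All these permutation tests were two-sided. By the maturation score described below, NR males 12 to 16 were the highest of their ration, and all were scanned on day 1. RR males 17, 18, 20 and 21, among the highest of theirs, were scanned on day 2. Scan day and maturation are therefore not separated in the scan day differences.

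A score of maturation was made for each male as the mean log2 deviation over 1140 probes that the study lists as higher in maturing males. The study chose that list on these same males. In NR males the score ran without a wide gap from -0.36 to 0.59. In RR males it fell into 16 males between -0.68 and 0.00 and 5 males, RR 17 to 21, between 0.67 and 1.05, so that no correlation over all males is given. Within NR males (n = 16), r with the score was 0.26 for Dmrta1, -0.30 for Hox-A2a and -0.49 for znf703, and rho was 0.32, -0.15 and -0.45. Within the 16 RR males below the gap, r was -0.21, 0.49 and -0.15, and rho -0.16, 0.10 and -0.15. The 0.49 of Hox-A2a was 0.02 with 75th percentile scaling. None of these 6 relations passed (two-sided permutation tests, lowest unadjusted p = 0.0531 for znf703 in NR males, adjusted p = 0.162). The study listed Dmrta1 and Hox-A2a on a contrast of immature males and znf703 on one of maturing males. That choice may itself favor a relation with the score within a ration, so that nothing is read from these 6. Without the 2 NR males farthest from the median score, r in NR males was 0.53 for Dmrta1, 0.06 for Hox-A2a and -0.61 for znf703. Without the 2 farthest RR males, r below the gap was -0.20, 0.38 and -0.42.

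For znf703 a second probe with the same description (CUST_25761_PI417904088) was on the array. The study lists it for a lower level in maturing males and not for the ration. Its normalized log2 intensity ranged from 10.48 to 11.92 in NR males (median 11.29) and from 10.40 to 12.27 in RR males (median 11.74). The groups overlapped over nearly the whole range, with 16 of 21 RR males above the NR median and 5 above every NR male. RR minus NR was 0.38 (standard error 0.15), which did not pass the test (adjusted p = 0.176, limma). On scan day 1 it was 0.62 and on scan day 2 it was -0.04, so that its direction did not hold in both days. RR males 17, 18, 20 and 21, which were low with this probe and high in the maturation score, were scanned on day 2. RR male 19, of the same kind, was scanned on day 1. The part of these males in the day 2 value was not tested.

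The 2 probes named znf703 parted in certain males. RR males 17, 18, 19, 20 and 21, which had the highest maturation scores, gave 10.90, 11.01, 10.99, 10.40 and 11.27 with the second probe, all below the other RR males (11.37 to 12.27). With the first probe the same males lay between 11.48 and 12.05, inside the range of the other RR males (10.85 to 12.34). Since the second probe was listed on the maturation contrast of these males, its relation to the score is a description without a test. In NR males its r with the score was -0.80 and its rho -0.73 (n = 16), and in the RR males below the gap r was -0.09 and rho -0.11. The latter r was -0.43 with 75th percentile scaling and -0.51 without the 2 males farthest from the median score, so that its size rests on the scaling and on those males. Between both probes, r was 0.59 in NR males and 0.51 in the RR males below the gap (n = 16 each, as a description). Whether the probes bind transcripts of the same gene copy is not known from the files used here.

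**Figure D4:**
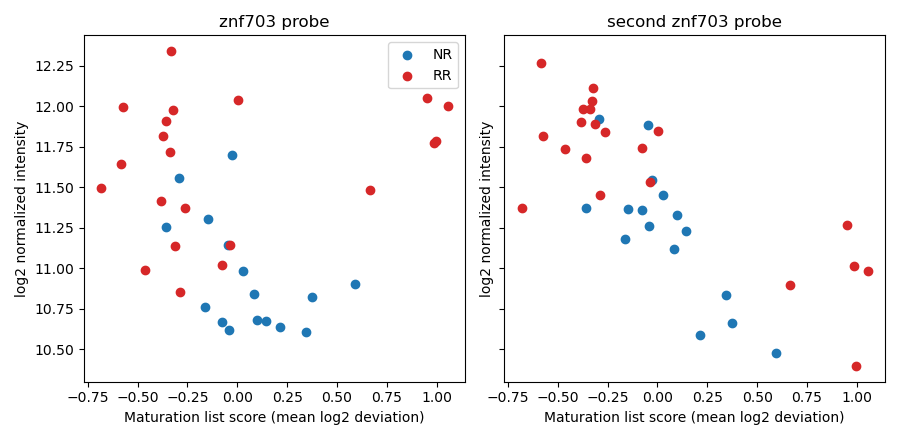
Normalized log2 intensity (y axis) of the znf703 probe (left) and of the second znf703 probe (right) against the maturation list score of each male (x axes, mean log2 deviation). RR males 17 to 21, at scores of 0.67 to 1.05, lie between 11.48 and 12.05 on the left and between 10.40 and 11.27 on the right.

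The probes whose pattern came closest to each gene were sought among all probes tested, by Pearson r of the deviations from the ration means over 37 males, as a description. For Dmrta1 the 5 closest had r between 0.68 and 0.84, and none of them has a description in the study's lists. For znf703 they had r between 0.54 and 0.64, with leucine-rich repeat-containing protein 17 as the only one with a description (r = 0.57). For Hox-A2a they had r between 0.87 and 0.89, among them adenylyl cyclase-associated protein 2 (r = 0.88), an actin-binding protein. That likeness was lower without RR males 16 and 20, where the highest r with Hox-A2a was 0.74. Of the 100 closest probes with all males, 36 were then shared for Hox-A2a, 65 for Dmrta1 and 57 for znf703. Of the 100 probes closest to Hox-A2a only 6 were shared with those under 75th percentile scaling, against 41 for Dmrta1 and 49 for znf703. Dmrta1, Hox-A2a and znf703 were not among the closest 5 of each other.

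A further 21 probes of transcription factors and their cofactors were taken from the study's lists by description, among them 5 homeobox, 3 forkhead, 4 basic helix-loop-helix and 2 LIM cofactor probes and the second znf703 probe. The study chose them all on these samples, 8 on a ration contrast and 13 on the maturation contrast only, so that they are not independent evidence of a direction. None of the 21 met the thresholds in limma, either higher or lower, against 0.256% of all probes. An unadjusted p below 0.05 (limma) was found for 8 of the 21 and for 6653 of the 40684 probes tested. As the study chose the 21 on these samples, nothing is read from the 8. The difference was above 0 in 6 and below 0 in 15, with a median of -0.12 against -0.02 over all probes tested, and ranged from -0.81 to 0.44.

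At an adjusted p below 0.01 with no threshold on the fold, which 0.467% of all probes met (0.184% higher and 0.283% lower in RR males), 1 of the 21 was higher and 1 lower in RR males, both listed by the study on a ration contrast. ERF, an ETS domain repressor, differed by 0.44 on the log2 scale (standard error 0.08), with 20 of 21 RR males above the NR median. Transcription factor-like 5 protein, a basic helix-loop-helix factor known from spermatogenesis in the mouse, differed by -0.55 (standard error 0.087), with 1 of 21 RR males above the NR median.

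Among the probes taken from the maturation contrast, none passed. Nuclear receptor subfamily 0 group B member 1 (NR0B1, DAX1 in mammals, a repressor of steroidogenic genes) differed by -0.50 (standard error 0.15, adjusted p = 0.0768 from limma). E2F2, a cell cycle regulator whose probe was well above background on only 32 of 37 arrays, differed by -0.81 (standard error 0.33, adjusted p = 0.212 from limma), but by -0.41 with 75th percentile scaling and -0.28 with normexp. The LIM domain factor LMO4.1 differed by -0.73 (standard error 0.31, adjusted p = 0.226 from limma). With slide as a fixed block, the values of NR0B1 and LMO4.1 were -0.31 and -0.45. With the maturation list score as a covariate they were -0.46 and -0.59 (adjusted p = 0.0237 and 0.0115 from limma). Both probes are themselves part of that score, whose list was chosen on these males. The covariate thus takes up their own variation, and nothing is read from these adjusted p. Tetra-peptide repeat homeobox protein 1 differed by -0.30 (standard error 0.12, adjusted p = 0.220 from limma). The study lists NR0B1, E2F2, LMO4.1 and Tetra-peptide repeat homeobox protein 1 as higher in maturing males, whose share per ration the labels do not give. Dlx5a, a homeobox protein known from craniofacial and limb development in the mouse, was taken from a ration contrast and differed by -0.28 (standard error 0.11), but by -0.095 with scan day and -0.097 with slide as a fixed block. Within scan day 1, the values of NR0B1, LMO4.1, Tetra-peptide repeat homeobox protein 1 and Dlx5a were -0.60, -0.79, -0.43 and -0.13. Within scan day 2, which had only 5 NR males, they were -0.13, -0.32, -0.05 and -0.06.

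**Figure D5:**
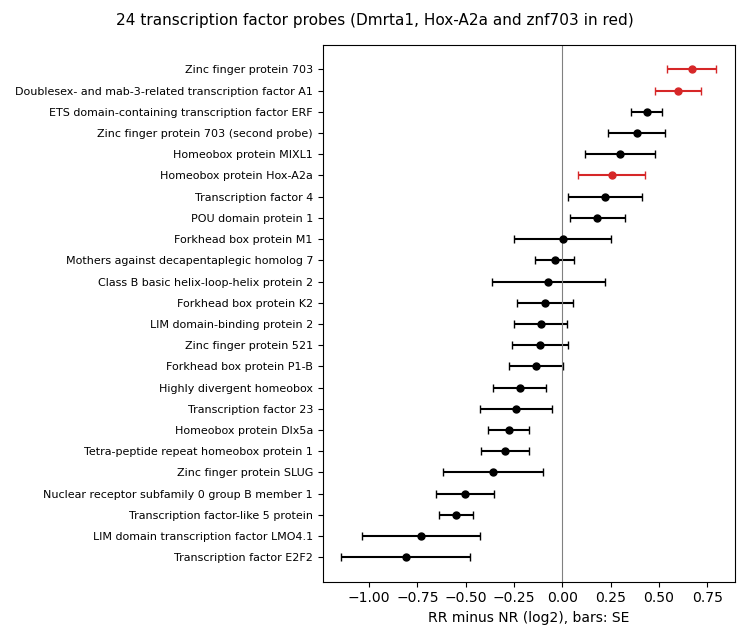
Difference between RR and NR males on the log2 scale (x axis, bars: standard error) for the 3 probes (red) and the 21 other transcription factor probes of the study's lists (black). Znf703 (0.67) and Dmrta1 (0.60) have the highest differences of the 24, and Hox-A2a (0.26) lies among the other probes above 0. The 3 probes were chosen as higher under restriction and 13 of the others on maturation only. The other 8 were chosen on a ration contrast, some of them, such as ERF, also as higher under restriction. Nothing is read from this order.

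Other transcripts moved with the ration in the same males. Their probes were also taken by description from the study's lists, which were chosen on these samples. Nothing is therefore read from how many of them were called. Of 8 probes of erythroid genes, all well above background on every array, 5 were differentially expressed and lower in RR males, against 0.167% of all probes. The values of 6 lay below 0 and those of 2 above, with a median of -1.04 on the log2 scale. Their mean log2 intensity was between 14.18 and 15.19 in NR males and between 12.66 and 15.18 in RR males. Of 5 crystallin probes, which mark lens, all 5 had values below 0 and 1 was differentially expressed, with list means of 8.43 to 10.16 in NR and 6.44 to 9.88 in RR males. Both 3 beta-hydroxysteroid dehydrogenase probes, of steroidogenic cells, had values below 0 (median -0.62, list means of 9.42 to 11.74 in NR and 8.58 to 11.03 in RR males), but were not differentially expressed. The same held for both gonadotropin beta subunit probes, of the pituitary (median -0.44, list means of 8.21 to 10.46 in NR and 7.38 to 9.62 in RR males). As for the labelled tissue, 4 of 5 probes of testis or sperm genes were well above background on all arrays and the other on 31, with list means of 9.22 to 11.23 in NR and 9.15 to 11.71 in RR males, and none was differentially expressed. With scan day as a fixed block limma called 0 of all probes lower in RR males (9 higher, and 4256 probes with an unadjusted p below 0.05 in either direction), so that the erythroid and crystallin calls were lost. The part of these cell types in the differences of Dmrta1, Hox-A2a and znf703 was not tested.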

How the data were processed

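Testis RNA of 37 males (16 NR, 21 RR) was measured on 1 one-color array each. The authors deposited the linear intensity of every spot from Agilent Feature Extraction version 10.7.1.1, with flags for outlier and well above background spots (other values, 0 or 1), and a table of log2 values. The deposited log2 values were found to be the background-subtracted intensity on a log2 scale (1589471 values, differing by at most 5e-09), with no normalization between arrays. Here log2 of the processed intensity was quantile normalized, as in the study's methods, with 1417 control spots and 581 outlier spots left out. A probe was tested if it stood well above background on 16 or more arrays (40684 probes), with limma 3.58.1 (lmFit, eBayes) in R 4.3.3. Values with a missing spot were dropped from the fit of that probe.

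Permutation tests used 100000 resamples (SciPy 1.17.1, NumPy 2.4.6) and Benjamini-Hochberg adjustment over 3 genes or pairs, or 6 relations for the maturation score. The score was tested within NR males and within RR males below a gap, in place of a pooled correlation, after the gap had been seen. Functions were tested on simulated data. The 3 probes, the lists and the tests were chosen with earlier results of these data known. Named are the 3 probes, the second probe of the same description, the 5 closest probes with a description and, of the other transcription factors, those with an unadjusted p below 0.05. The array has 112 RefSeq identifiers, of which the gene table held 0. The labels call the 37 samples biological replicates, 1 male per array. Alternatives were other scaling, background correction, filters, deposited values, blocks for slide, scan day and replicate number, array weights, the methods' t-test and each male left out. Males with the same replicate number correlated above 0.1 in 6 of 16 pairs (median 0.064) and share only a number.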

Additional observations from a re-analysis of the deposited data

How the results depend on the processing

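The differences of the 3 probes kept their sign under all settings run, but that of Hox-A2a spanned 0.08 to 0.59. The probes were chosen as higher under restriction on these males, which favors this sign, so that nothing is read from it. Dmrta1 lay between 0.54 and 0.64 when single males were left out, Hox-A2a between 0.22 and 0.36 and znf703 between 0.63 and 0.72. The number of probes differentially expressed between rations (104) was 9 with slide and 9 with scan day as a fixed block, 175 with array weights and 187 with the maturation list score as a covariate. Within scan day 1 and within scan day 2 it was 0 (limma, with 3517 and 2231 probes at an unadjusted p below 0.05). It lay between 56 and 129 with single males left out, and fell by more than 1.5 times without NR male 1, 2, 3, 8, 12, 13, 14, 15 or 16 or RR male 3, 11 or 12. The replicate block gave 290 probes, with Dmrta1 still called and znf703 not, and called the second znf703 probe (0.60, adjusted p = 0.00668 from limma) and LMO4.1 (-1.27), although the numbers pair no samples. Transcription factor-like 5 protein was called with the deposited values (-0.61). The second znf703 probe was -0.040 within scan day 2. Dmrta1 with Hox-A2a passed only with 75th percentile scaling (r = 0.58, and 0.52 without RR males 16 and 20, where r of Hox-A2a with znf703 was 0.028). Dmrta1 and Hox-A2a were both listed on immature males, so that nothing is read from this pair. For Hox-A2a, r with the score in NR males turned to 0.059 without the 2 farthest males, the scan day difference to 0.18 with 75th percentile scaling, and the spread difference to -0.084 and the highest r of a close probe to 0.74 without RR males 16 and 20. Of the 13 listed transcription factor probes with an unadjusted p above 0.05, 8 changed sign under at least 1 setting and 1, SLUG, was called with the replicate block (-0.83). The cause was not tested. Hox-A2a dropped out when a probe had to be well above background on every array. Alternatives with the score, within scan day or without RR males 16 and 20 were chosen after seeing the data.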
